A study of Mus musculus with 16 samples.

Results

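Adult mouse neural stem cells that carried the CreER transgene were compared with cells without Cre after both had been exposed to the same compound. The comparison used 8 of the 16 arrays of the series, chosen by their titles. The 4 arrays labelled Tlx(f/Z;CreER)+4OH-TM held CreER cells given 4-hydroxytamoxifen (written 4OH-TM in the labels and 4OHT here), 2 collected at 36 h and 2 at 60 h. The 4 arrays labelled Tlx(f/Z)+4OH-TM held cells of the same Tlx genotype without the transgene, given 4OHT and collected at the same times. All 8 samples therefore shared the f/Z Tlx genotype and the compound, and differed in the transgene. The other 8 arrays of the series held the same genotypes and times with vehicle in place of 4OHT, and they give the genotype difference without the compound. The labels do not spell out f or Z. They give no age of the animals, no promoter for CreER and no number of lines or animals per genotype, so the transgene, what it does with 4OHT and any difference between the cell lines cannot be told apart in this comparison. The series describes its replicates as biological, with 2 per group. It does not say whether they were separate lines or separate cultures of 1 line, so the p-values below measure the spread between these samples.

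Tlx, also named Nr2e1, is an orphan nuclear receptor of the forebrain that keeps adult neural stem cells dividing and represses genes of differentiation and cell-cycle exit. CreER is Cre recombinase fused to the ligand-binding domain of the estrogen receptor. The fusion waits in the cytoplasm until 4OHT binds it, then enters the nucleus and recombines loxP sites. Neural stem cells in culture can divide in the presence of growth factors or leave the cycle into a quiescent state, and cyclins, CDK inhibitors, growth factor signals and adhesion to the matrix take part in that choice.

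Each array gave 1 signal per probe set, and signals were brought to a common distribution before testing. Values below are these normalised signals, and log2 differences are CreER minus no Cre on the scale log2(signal + 16), which understates the change of dim genes. A gene was called when its adjusted p in limma's moderated test (Benjamini-Hochberg over the 7618 genes tested) was under 0.05. Replicate arrays correlated at 0.988 to 0.991 in the 4OHT groups, and arrays of different genotype at the same time at 0.966 to 0.976. The 5′ to 3′ signal ratio of the actin control probes, a measure of RNA integrity, was 0.598 ± 0.069 (SD, n = 2) in no-Cre cells at 36 h. It was 0.807 ± 0.025 in CreER cells at 36 h, 0.780 ± 0.086 in CreER cells at 60 h and 0.870 ± 0.029 in no-Cre cells at 60 h (n = 2 each). The no-Cre arrays at 36 h thus stood apart from the other 6. This bears on the 36 h values, on the comparison pooled over both times and on every comparison between the times.

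The labels were checked on the transgene and on cell type markers. Esr1, the gene of the estrogen receptor alpha whose domain the fusion carries, measured 487, 449, 479 and 405 in the 4 CreER arrays (36 h, 36 h, 60 h, 60 h) and 17.6, 16.2, 18.7 and 22.6 in the no-Cre arrays in the same order. The probe set was bright in every CreER array and dim in every no-Cre array, with or without 4OHT. No probe set analysed here carried the symbol Nr2e1 (0 of 22626), so the level of Tlx itself was not analysed here. Of 25 neural stem and progenitor markers on the array, 22 passed the filter on low signals. The intermediate filament gene Nes lay at 1668 to 2495 in CreER and 2468 to 2987 in no-Cre arrays, and the stem cell factor Sox2 at 1574 to 1935 and 1333 to 1739. The lineage factor Olig2 and the fatty acid binding protein gene Fabp7 were bright as well, at 3138 to 3890 and 4487 to 5772 in CreER arrays. The members that did not pass were Sox1, Hes5 and Prom1, which were dim in both genotypes. They lay at 4.37 to 19.0, 6.47 to 28.8 and 0.827 to 13.3 in CreER arrays. In no-Cre arrays they lay at 2.95 to 3.87, 8.99 to 25.9 and 2.12 to 13.7.

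Lists of other cell types were present in part. Of the astrocyte list 15 of 24 members on the array passed the filter, of the neuronal list 10 of 29 and of the oligodendrocyte list 6 of 14. Of all 12393 genes on the array 7618 passed. Bright members included Sparcl1 (3987 to 5125 over the 8 arrays), Aldoc (3084 to 4029), Map2 (1089 to 1873), Sox4 (2849 to 3562), Olig1 (6795 to 7681) and Cnp (780 to 1146). Several markers used to define other cell types were dim in both genotypes. Gfap of astrocytes lay at 15.5 to 36.0 over the 8 arrays, Dcx of young neurons at 5.52 to 22.96, Mbp of oligodendrocytes at 18.4 to 35.7, Aif1 of microglia at 2.48 to 13.8 and Pecam1 of endothelium at 0.944 to 9.23. None of these 5 passed the filter, and none was at exactly 0. The microglial list had 1 of 16 members past the filter and the ependymal list 0 of 5. Summed over the 16 fibroblast and meningeal markers, the signal was 5258 to 5692 in CreER and 1929 to 2112 in no-Cre arrays. Thy1 alone, which is not limited to these cell types, gave 2764 to 2987 and 88.6 to 119 of these sums. Of the 4 members past the filter, Thy1, Fbln1 and Fn1 were higher and Foxc1 lower, while Col1a1 and Pdgfra were dim in both (15.2 to 34.4 and 17.2 to 25.8 in CreER). The part of a difference in cell makeup in the results was not tested. Fewer cells of a type and less RNA per cell cannot be told apart in these samples.

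Under 4OHT the 2 genotypes differed at 4262 of 7618 genes (55.9%), 2111 higher (27.7%) and 2151 lower (28.2%) in CreER cells. Most of these differences were small. Of the genes called, 3051 differed by less than 0.5 on the log2 scale, and 135 higher and 124 lower genes differed by more than 1. The median standard error of a log2 difference was 0.068. The 4 CreER arrays did not overlap the 4 no-Cre arrays at 1329 higher and 1318 lower genes (together 34.7% of the genes tested). Without the common distribution, on signals as deposited, the median of all genes shifted by -0.15 and the calls split into 654 higher and 2280 lower, so small differences depended on how arrays were scaled. With the actin ratio of each array in the model 3705 genes were called. A fit of genotype and time as additive terms on the 8 arrays with 4OHT alone called 3221.

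The largest difference upward was in Thy1, a surface glycoprotein of neurons, fibroblasts and other cells. Thy1 measured 2987, 2764, 2877 and 2951 in the CreER arrays and 88.6, 102, 118 and 119 in the no-Cre arrays (both in the order 36 h, 36 h, 60 h, 60 h, as in all lists of 4 below). The groups were far apart at both times, with a pooled log2 difference of 4.57 (SE 0.07, limma adjusted p = 4.6e-16). Apln, which encodes the secreted peptide apelin, measured 3116, 2945, 3060 and 2941 in CreER and 422, 415, 511 and 453 in no-Cre arrays, a log2 difference of 2.70 (SE 0.05). Clu, the secreted chaperone clusterin and an astrocyte-enriched gene, measured 1017, 983, 1398 and 1156 against 170, 152, 131 and 185, a log2 difference of 2.72 (SE 0.10). Its 3 other probe sets gave 2.54 to 2.83. Slpi, a secreted protease inhibitor, differed by 2.68, the taurine transporter Slc6a6 by 2.57, Scrg1 by 2.35, the secreted olfactomedin protein Olfml3 by 2.20 and the ligand Tgfb3 by 2.13. Gdpd3, AI506816, Gm6958, Clec14a and Tmem223 completed the upper end, at 3.72, 3.76, 3.14, 2.85 and 2.19. The 15 genes named at the upper end, Esr1 and Paip1 included, were chosen among called genes whose groups did not overlap.

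Paip1, a partner of the poly(A)-binding protein, is uncertain: the probe set used gave 3.64 and a second one gave -1.17.

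The largest difference downward was in Serpinh1, the collagen chaperone HSP47 of the endoplasmic reticulum. Serpinh1 measured 156, 128, 190 and 149 in CreER arrays and 3895, 4047, 4568 and 4712 in no-Cre arrays. The groups were again far apart, with a log2 difference of -4.66 (SE 0.07, limma adjusted p = 3e-16), and a second probe set gave -4.53. Fbln2, a matrix glycoprotein of basement membranes, measured 291, 304, 349 and 371 against 2696, 2865, 3488 and 3567, a log2 difference of -3.20 (SE 0.05). Zic1, a zinc finger factor of dorsal and medial brain regions, measured 58.6, 42.1, 47.8 and 24.7 against 901, 770, 759 and 675, a log2 difference of -3.77 (SE 0.12). Ddit4l, a relative of the mTORC1 inhibitor Ddit4, differed by -4.15, the chemokine gene Ccl9 by -4.02, the transcription factor Ebf1 by -3.14 and the surface proteins Cd200 and Itm2a by -2.97 and -2.91. Tmlhe, Sil1, Syt9, B9d1, Armcx1, Mfsd10 and Anxa5 lay between -3.81 and -2.99, and none exceeded 41.9 in a CreER array. The 15 genes named at the lower end were chosen by the same rule.

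These genes also differed without the compound, in the same direction. Under vehicle, Thy1 differed by 3.86, Apln by 2.42, Clu by 2.21, Serpinh1 by -4.62, Zic1 by -3.57 and Fbln2 by -2.56. The difference was larger under 4OHT for Thy1 (by 0.72), Apln (0.28), Clu (0.50) and Fbln2 (-0.63), all called, and the changes of Serpinh1 (-0.04) and Zic1 (-0.20) were not called.

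**Figure D1:**
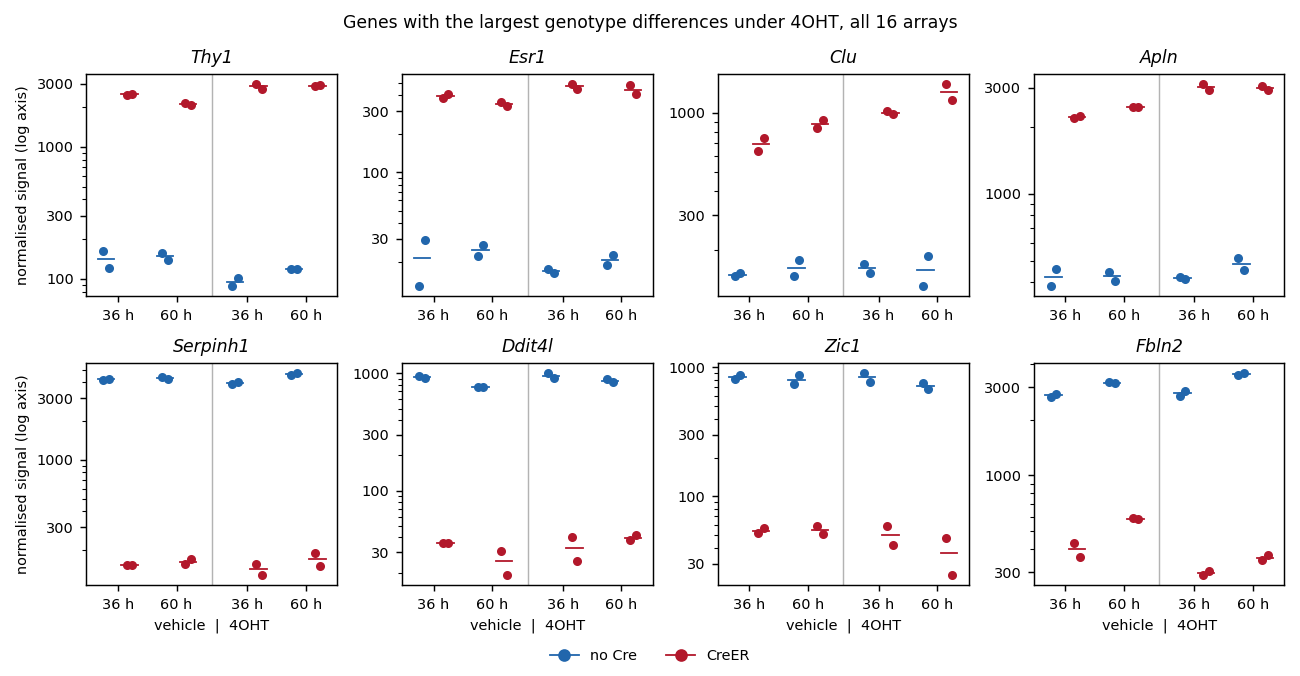
Normalised signal (log axis) of 8 genes with large genotype differences under 4OHT, in all 16 arrays; each point is 1 array, the short line is the mean of the 2 arrays of a group, and the grey line parts vehicle (left) from 4OHT (right). Thy1, Esr1, Clu and Apln are higher and Serpinh1, Ddit4l, Zic1 and Fbln2 lower in the CreER cells in every group, with vehicle as with 4OHT.

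Across all genes the difference under 4OHT resembled the difference under vehicle, which rests on the other 8 arrays and shares none with it. Under vehicle 4204 genes were called (55.2%), 2225 higher (29.2%) and 1979 lower (26%). Of the genes higher under 4OHT, 1451 were also higher under vehicle (68.7% of those under 4OHT, 65.2% of those under vehicle). Of the genes lower under 4OHT, 1387 were also lower under vehicle (64.5% and 70.1%). In opposite directions stood 76 genes higher under 4OHT and lower under vehicle, and 88 the reverse. Across the 7618 genes the log2 differences correlated at r = 0.85 (Spearman 0.73), given as a description since genes are not independent and all arrays share a platform.

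The genotype difference under 4OHT minus that under vehicle gives how far the genotype difference changed with the compound. It was called at 1463 genes (19.2%), 690 with a higher difference under 4OHT (9.06%) and 773 with a lower one (10.1%). Only 28 of the former and 1 of the latter passed 1 on the log2 scale. Of the 690, 187 were lower in CreER cells under vehicle and no longer called under 4OHT (27.1%), 123 were lower in both, 76 went from lower to higher, 175 from not called to higher, 124 were higher in both and further apart under 4OHT, and 5 were called in neither. Of the 773, 254 went from not called to lower (32.9%), 224 from higher to not called (29.0%), 88 from higher to lower, 101 stayed higher, 101 stayed lower and 5 were called in neither. On signals as deposited the same comparison called 178 genes, 116 higher and 62 lower. With each array scaled to a common median it called 1195, 424 higher and 771 lower.

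**Figure D2:**
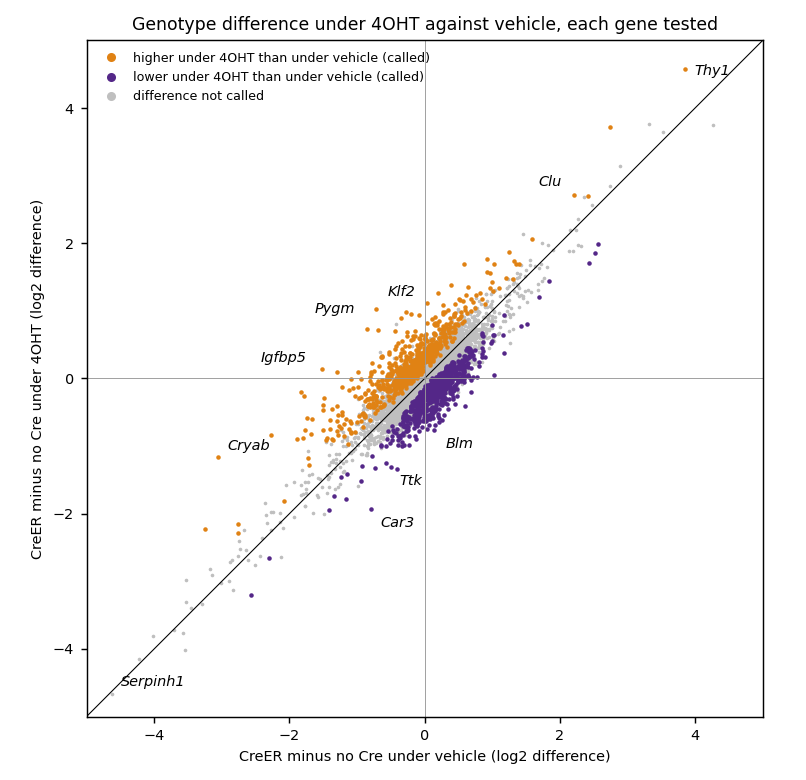
Log2 difference CreER minus no Cre under vehicle (horizontal) against that under 4OHT (vertical) for the 7618 genes tested; the black line marks equal differences. Orange points are the 690 genes with a called higher difference under 4OHT and purple points the 773 with a called lower one; Thy1 and Serpinh1 lie at the ends of the line, Cryab, Igfbp5, Pygm and Klf2 above it, and Blm, Ttk and Car3 below it.

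Genes of DNA replication, mitosis and DNA repair were lower in CreER cells under 4OHT. Among all genes tested 28.2% were lower and 27.7% higher. Of 41 replication and G1/S genes tested, 34 were lower and 1 higher (Pole2, 0.15), with a median log2 difference of -0.27 against 0.00 over all genes. At 36 h 15 of the 41 were lower and 5 higher (27.2% and 26% over all genes), and at 60 h 33 and 0 (18.4% and 18.9%). The change from 36 h to 60 h was called lower at 25 and higher at 0, against 9.9% and 10.3% over all genes. With the actin ratio of each array in the model, that change was called lower at 2. Of 44 genes of mitosis and G2/M, 35 were lower and 2 higher (Cdc25b, 0.45, and Pttg1, 0.42), with a median of -0.36. At 36 h 24 of these were lower and 4 higher, and at 60 h 35 and 1. Of 17 genes of DNA repair and the replication fork checkpoint, 12 were lower and 0 higher, with a median of -0.39. At each time 10 of these were lower and 0 higher. In all 3 lists the medians kept their sign on signals as deposited (-0.46, -0.55 and -0.58) and with each array scaled to a common median (-0.32, -0.41 and -0.45). Over both times the lower genes numbered 30, 32 and 12 with the actin ratio of each array in the model. In a fit of genotype and time as additive terms on the 8 arrays with 4OHT alone, 21 replication genes and 29 mitosis genes were lower.

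Under vehicle the same lists looked different. There 27 of the 41 replication genes were higher and 1 lower (median 0.18), 13 mitosis genes were higher and 15 lower (median -0.02), and 7 repair genes were higher and 1 lower (median 0.14). Among all genes tested 29.2% were higher and 26% lower under vehicle. On signals as deposited only 2 replication genes were called higher under vehicle, with a median of 0.02 beside an all-gene median of -0.13 (main scaling: 0.18 and 0.02), so the calls there depended on the scaling while the gap to all genes was similar. In the difference between 4OHT and vehicle, 38 replication genes were lower and 1 higher (Ccnd1, 0.11), 40 mitosis genes were lower and 0 higher, and 16 repair genes were lower and 0 higher, with medians of -0.46, -0.43 and -0.52 against -0.01 over all genes. Among all genes tested that difference was called lower at 10.1% and higher at 9.06%. On signals as deposited the list medians were -0.48, -0.44 and -0.52 while the calls numbered 15, 2 and 6. With the 60 h arrays alone the calls numbered 30, 13 and 9.

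Pola1, the catalytic subunit of the polymerase that primes each new DNA strand, measured 303, 282, 183 and 167 in CreER and 496, 520, 366 and 376 in no-Cre arrays. The groups did not overlap, and within each time the CreER arrays were the lower ones, with a log2 difference of -0.89 (SE 0.06). Mcm4, a subunit of the replicative helicase, measured 1182, 1194, 952 and 922 against 1690, 1687, 1387 and 1403, a log2 difference of -0.53 (SE 0.04). A second Mcm4 probe set gave -0.22, and -0.01 at 36 h. The primase gene Prim1 differed by -0.61 and Pcna, the sliding clamp of the polymerases, by -0.29. Under vehicle the same 4 genes differed by -0.13, 0.05, 0.04 and -0.00, none of them called.

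Among genes of mitosis, Top2a, the topoisomerase that untangles sister chromatids, measured 1618, 1606, 1176 and 1155 in CreER and 3084, 3099, 2176 and 2147 in no-Cre arrays. Every CreER array was below every no-Cre array, with a log2 difference of -0.91 (SE 0.03, limma adjusted p = 2e-12). The kinase of the spindle checkpoint, Ttk, measured 221, 234, 120 and 166 against 532, 511, 421 and 416, a log2 difference of -1.31 (SE 0.10). Ccnb2, a cyclin of mitotic entry, differed by -1.14, the spindle motor gene Kif11 by -0.98 and the condensin subunit gene Smc2 by -0.83. Unlike the replication genes above, these were already lower under vehicle. They differed there by -0.48 for Top2a, -0.50 for Ttk, -0.77 for Ccnb2, -0.39 for Kif11 and -0.32 for Smc2. All 5 differences were larger under 4OHT (called). The call for that change held in all 29 alternatives for Ttk. It was lost in 1 for Ccnb2 and in 2 each for Top2a, Kif11 and Smc2.

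Among genes of repair and the fork checkpoint, the helicase gene Blm measured 212, 211, 133 and 132 in CreER and 349, 374, 260 and 227 in no-Cre arrays. It differed by -0.77 (SE 0.06) without overlap under 4OHT and by 0.14, not called, under vehicle. Brca1, which acts in homologous recombination, measured 366, 315, 259 and 236 against 560, 555, 372 and 400, a log2 difference of -0.65 (SE 0.06). Under vehicle Brca1 was 0.21 higher in CreER cells, and its 2 other probe sets gave -0.72 and -0.70 under 4OHT. The checkpoint kinase gene Chek1 differed by -0.61 under 4OHT and 0.26 under vehicle, and the groups overlapped because the no-Cre arrays at 60 h, at 123 and 117, lay below the CreER arrays at 36 h, at 140 and 132. Within each time the CreER arrays were the lower ones. A second Chek1 probe set gave a difference from vehicle of -0.36, against -0.87 for the one used. Tipin of the fork protection complex differed by -0.57, the ubiquitin ligase adaptor gene Dtl by -0.69, Lrr1 by -1.34 (a second probe set, -0.45) and the cell-cycle repressor gene E2f8 by -0.38.

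Promoters of replication genes often hold sites for E2F, the factors that the retinoblastoma protein restrains until S phase. RefSeq promoter windows (GRCm38.p6, 250 bases before to 50 after the start) were matched to 6268 of the 7618 genes tested (82.3%), and were searched on both strands for TTTGGCGC and TTTCCCGC, which were counted apart from the motif below. Of these windows 4.05% held a match. The share was 9.44% (62 of 657) among genes with a lower difference under 4OHT than under vehicle, 1.55% (9 of 580) among those with a higher one, 5.39% among genes lower and 3.37% among genes higher under 4OHT, and 28.6% (10 of 35) in the replication list. Over all 32851 windows it was 1.56%. The cell-cycle homology motif, TTTGAA or TTCGAA on either strand, stood in 15.8% of tested windows and in 77.8% (28 of 36) of those of the mitosis list, whose share of E2F matches was 2.78%. A match is a description of these letters and not of binding. To show such matches in genes whose difference fell with 4OHT, the bases around the match are given 5′ to 3′ on the gene's strand for 5 genes, with the match in capitals. They come from chrX:93632256-93632323 (minus strand), chr8:75109330-75109397 (plus), chr1:128359778-128359845 (minus), chr1:128359715-128359782 (minus), chr11:98907983-98908050 (plus) and chr5:150522423-150522490 (plus), and all lie upstream of the start.
Pola1: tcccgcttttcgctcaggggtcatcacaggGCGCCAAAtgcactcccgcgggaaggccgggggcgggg
Mcm5: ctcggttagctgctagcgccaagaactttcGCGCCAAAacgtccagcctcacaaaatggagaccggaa
Mcm6, first match: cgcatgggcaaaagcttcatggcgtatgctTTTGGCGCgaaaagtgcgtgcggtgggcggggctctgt
Mcm6, second match: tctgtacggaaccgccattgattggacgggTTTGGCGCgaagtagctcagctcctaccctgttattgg
Cdc6: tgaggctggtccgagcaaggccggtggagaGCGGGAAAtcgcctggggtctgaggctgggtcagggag
Brca2: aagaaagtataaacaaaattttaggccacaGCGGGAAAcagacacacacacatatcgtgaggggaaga

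The difference between 4OHT and vehicle was -0.76 for Pola1, -0.58 for Mcm5, -0.56 for Mcm6, -0.53 for Cdc6 and -0.43 for Brca2. Mcm6 held a pair of matches. Mcm5 and Mcm6 encode further subunits of the helicase that Mcm4 belongs to, Cdc6 loads that helicase at origins, and Brca2 acts in the repair of DNA breaks. These genes were chosen for their match after the values were seen, as were list members named only to say which were called, such as Pole2, Ccnd1, Cdc25b, Pttg1, Cdkn2c, Sox9, Pax6 and Hdac5.

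CDK inhibitors and p53 target genes went the other way in the difference from vehicle. Of 23 tested, 11 were higher and 5 lower under 4OHT (median 0.10, and -0.03 on signals as deposited), beside 27.7% and 28.2% over all genes. Under vehicle 5 were higher and 13 lower (median -0.24), beside 29.2% and 26%. In the difference between 4OHT and vehicle 15 were higher and 1 lower (Cdkn2c, -0.27), beside 9.06% and 10.1%. The median of that difference was 0.49, and also 0.49 on signals as deposited. Cdkn1a, the p21 inhibitor of CDK2 and a reported target of TLX repression, measured 2696, 2810, 3638 and 3461 in CreER and 2022, 1966, 2461 and 2853 in no-Cre arrays. The CreER arrays were higher within each time, though one no-Cre array at 60 h exceeded both CreER arrays at 36 h, and the log2 difference was 0.44 (SE 0.06). Under vehicle Cdkn1a was lower by -0.44, which makes a difference of 0.88 (SE 0.09, limma adjusted p = 1.2e-05) between 4OHT and vehicle. A second probe set of Cdkn1a gave -0.68 under 4OHT and a difference from vehicle of 1.36, so the 2 probe sets share the direction of the difference from vehicle and not the direction under 4OHT.

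Other members of that list were higher under both treatments. Cdkn2b, the p15 inhibitor of CDK4 and CDK6, measured 455, 494, 549 and 600 against 124, 96.0, 135 and 101, a log2 difference of 2.06 under 4OHT and 1.59 under vehicle. Gadd45a, a stress gene that slows mitotic entry, measured 1520, 1530, 1408 and 1281 against 497, 439, 388 and 409, a log2 difference of 1.69 and 1.40. The mTORC1 inhibitor Ddit4 differed by 1.09 and 0.44, and the antiproliferative gene Btg2 by 0.80 and 0.19. In each of the 4 genes the arrays under 4OHT did not overlap. The difference from vehicle was called for each, at 0.47, 0.29, 0.65 and 0.61, but on signals as deposited the calls for Cdkn2b, Gadd45a and Btg2 were lost. The Cdkn2b call was lost in 12 of 29 alternatives in all.

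**Figure D3:**
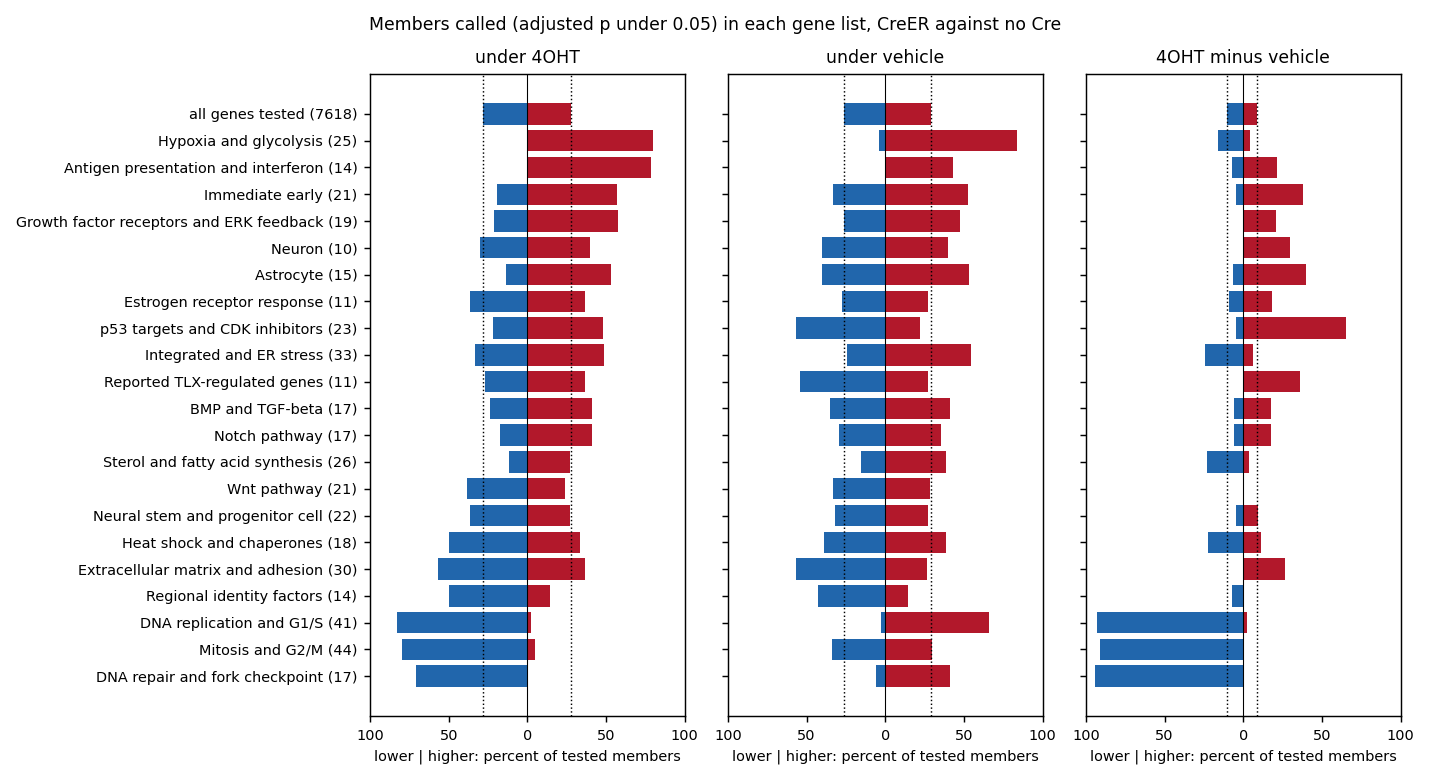
Percent of tested members called higher (red, right) or lower (blue, left) in CreER cells for each list with at least 10 members tested (number in brackets), under 4OHT, under vehicle and in the difference between them; dotted lines mark the shares over all genes. In the right panel the replication, mitosis and repair lists reach 38 of 41, 40 of 44 and 16 of 17 lower, and the p53 list 15 of 23 higher.

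Genes with the largest gain in the difference from vehicle included genes that stayed lower in CreER cells by a smaller gap, genes no longer called and genes that went from lower to higher. Cryab, a small heat shock protein, measured 117, 169, 340 and 372 in CreER and 533, 427, 610 and 551 in no-Cre arrays, a log2 difference of -1.17. Under vehicle it measured 49.0, 85.1, 61.9 and 26.2 against 574, 483, 582 and 572, a log2 difference of -3.06. CreER arrays stayed below no-Cre arrays under both, and the gap was smaller under 4OHT by 1.89 (SE 0.25, limma adjusted p = 0.0001). S100b, a calcium-binding protein of astrocytes, differed by -1.30 under vehicle and by 0.09, not called, under 4OHT, a change of 1.39. Ptp4a3, a phosphatase, went from -1.78 to -0.26, the annexin Anxa1 from -2.27 to -0.84, the insulin-like growth factor binding protein Igfbp5 from -1.52 to 0.14, the kinase Prkch from -1.49 to -0.29 and the muscle-type cytochrome oxidase subunit Cox8b from -1.83 to -0.19. A second probe set gave -0.20 under 4OHT for S100b, and a change of 0.61 against 1.66 for Igfbp5. The Prkch difference under 4OHT (limma adjusted p = 0.04) was lost when any 1 of the 8 arrays was left out.

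Pygm, the muscle glycogen phosphorylase, measured 736, 650, 1121 and 1246 in CreER and 454, 411, 478 and 403 in no-Cre arrays, a log2 difference of 1.03. Under vehicle it measured 292, 369, 376 and 307 against 574, 518, 569 and 586, a log2 difference of -0.72. It therefore went from lower to higher, by 1.75 (SE 0.12, limma adjusted p = 5e-07). Klf2, a zinc finger factor linked to quiescence in other cells, measured 370, 356, 783 and 609 against 196, 185, 314 and 318 under 4OHT and differed by 0.98, against -0.28 under vehicle. Gsn, which severs actin filaments, went from -0.85 to 0.73, the carbonyl reductase Dcxr from -0.68 to 0.72 and the stress gene Gadd45b from -0.35 to 0.89. Of 17 tested genes of a quiescence and muscle-type list that had been drawn from these samples, and so is not independent, 13 were higher and 1 lower (Car3) in the difference from vehicle, with a median of 1.26.

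At the lower end of the difference from vehicle stood Car3, a carbonic anhydrase, beside the cell-cycle genes given above. It measured 79.2, 90.9, 77.5 and 77.6 in CreER and 400, 376, 343 and 305 in no-Cre arrays, a log2 difference of -1.93 against -0.79 under vehicle. The change was -1.14 (SE 0.10) and every group was apart. Crb3 of cell polarity (-0.998), Spata5 (-0.97), Serinc4 (-0.90) and the neurotrophin Bdnf (-0.83) followed. Of these, the Bdnf change (limma adjusted p = 0.031) was lost when any of 8 single arrays was left out and the Spata5 change (limma adjusted p = 0.027) when any of 5 was, a second Bdnf probe set gave 0.17, and the 2 other Spata5 probe sets gave -0.13 and -0.36.

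**Figure D4:**
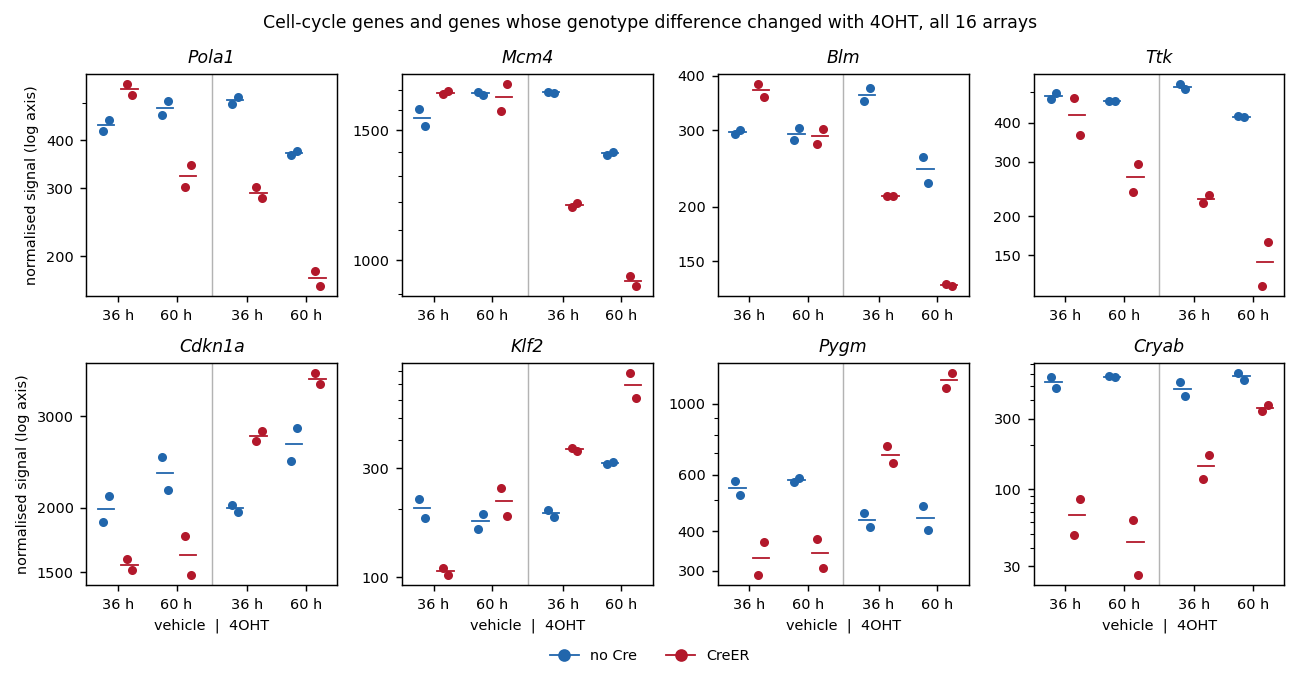
Normalised signal (log axis) in all 16 arrays, drawn as 1 point per array with a line at the mean of each group of 2; vehicle is left of the grey line and 4OHT right. Under 4OHT the CreER arrays of Pola1, Mcm4, Blm and Ttk are below the no-Cre arrays of the same time, those of Cdkn1a, Klf2 and Pygm are above them, and those of Cryab rise to 117 to 372 from 26.2 to 85.1 under vehicle.

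Genes of glycolysis and of the response to low oxygen were higher in CreER cells, with and without 4OHT. Of 25 tested, 20 were higher and 0 lower under 4OHT (median 0.55, and 0.35 on signals as deposited), beside 27.7% and 28.2% over all genes. Under vehicle 21 were higher and 1 lower (median 0.48), beside 29.2% and 26%. Bnip3, a mitophagy receptor induced by HIF, measured 576, 600, 1301 and 1642 in CreER and 257, 237, 210 and 253 in no-Cre arrays, a log2 difference of 1.89. The glucose transporter gene Slc2a3 measured 334, 373, 437 and 550 against 97.3, 95.9, 82.8 and 94.6, a log2 difference of 1.99. The groups of both genes were apart, and CreER arrays were higher at 60 h than at 36 h. The prolyl hydroxylase gene Egln3 differed by 1.86, the peptide hormone gene Adm by 1.51, the glycolytic genes Pfkl and Tpi1 by 0.91 and 0.77, and Vegfa, the endothelial growth factor and a reported TLX target, by 1.22. In the difference from vehicle 1 member was higher and 4 lower, beside 9.06% and 10.1% over all genes. Egln3 (-0.66) and Slc2a3 (-0.57) were among the 4, and both calls were lost with the 60 h arrays alone. In all, the Egln3 call was lost in 2 of 28 alternatives and the Slc2a3 call in 8 of 29.

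Antigen presentation and interferon genes were higher at 11 of 14 tested and lower at 0 (median 0.44), against 6 and 0 under vehicle, and at 6 of 14 on signals as deposited. Ifitm3, an interferon-induced membrane protein that blocks viral entry, measured 2526, 2701, 2855 and 2993 in CreER and 768, 754, 916 and 967 in no-Cre arrays, a log2 difference of 1.69 with the groups apart. The class I heavy chain gene H2-K1 differed by 0.55 (a second probe set, 0.22) and the immunoproteasome subunit gene Psmb10 by 0.59. Immediate early genes were higher at 12 of 21 and lower at 4 (median 0.37), beside 27.7% and 28.2% over all genes. Under vehicle 11 of them were higher and 7 lower (median 0.15). Under 4OHT the phosphatase gene Dusp1 differed by 0.86, Jund of AP-1 by 0.79, Ier5 by 0.87 and Arc, a synaptic plasticity gene, by -1.56. Dusp1 measured 943, 791, 1356 and 1372 against 494, 464, 731 and 733, and under vehicle differed by 0.22.

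Extracellular matrix and adhesion genes split, with 11 of 30 higher and 17 lower (median -0.18), beside 27.7% and 28.2% over all genes. Under vehicle 8 were higher and 17 lower, beside 29.2% and 26%. In the difference from vehicle 8 were higher and 0 lower, beside 9.06% and 10.1% over all genes, with Col5a2 (0.60) among the 8. A second Col5a2 probe set gave a difference from vehicle of 0.27. Col5a2, a fibrillar collagen chain, measured 254, 247, 380 and 390 in CreER and 1410, 1445, 1442 and 1450 in no-Cre arrays, a log2 difference of -2.15. The hyaluronan receptor gene Cd44 measured 1229, 1264, 1156 and 1316 against 408, 368, 551 and 538, a log2 difference of 1.40, and the laminin receptor subunit gene Itga6 differed by 1.29. The proteoglycan gene Vcan differed by -0.86. In each of these 4 genes the groups did not overlap, and the differences under vehicle were -2.75, 1.36, 1.49 and -0.79.

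Factors of regional identity were lower at 7 of 14 and higher at 2 (median -0.23), and under vehicle at 6 and 2. Over all genes 28.2% were lower and 27.7% higher under 4OHT. Beside Zic1, the midbrain and hindbrain factor gene En2 measured 27.2, 16.0, 13.8 and 27.4 in CreER and 246, 204, 210 and 190 in no-Cre arrays, a log2 difference of -2.64, and Irx2 differed by -1.997. Meis2, a homeobox gene of the ventral forebrain, differed by 1.66. In the difference from vehicle 1 of the 14 was called, Pax6 at -0.34. Of 7 sex-linked genes tested, 3 were lower (Uty, Kdm6a and Ddx3x, by -0.51, -0.33 and -0.38) and 0 higher, beside the same shares over all genes. Under vehicle 3 of the 7 were lower and 2 higher. Eif2s3y of the Y chromosome lay at 239 to 269 in CreER and 199 to 267 in no-Cre arrays, above the filter in all 8.

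Of 22 stem cell genes tested, 6 were higher and 8 lower (median -0.05), beside 27.7% higher and 28.2% lower over all genes, and 6 and 7 under vehicle. Hmga2, a chromatin protein of young stem cells, measured 602, 520, 653 and 644 in CreER and 207, 221, 224 and 293 in no-Cre arrays, a log2 difference of 1.30. The inhibitors of bHLH factors Id1 and Id3 went opposite ways, at 1.54 and -0.42, and the receptor Notch1 was higher by 0.56. Sox9 and Pax6 were lower by -0.80 and -0.79. Among 15 astrocyte genes 8 were higher and 2 lower (median 0.13; 4 higher on signals as deposited), and under vehicle 8 and 6. The folate enzyme gene Aldh1l1 differed by 1.34, the sodium pump subunit gene Atp1b2 by 0.97 and the gap junction gene Gja1 by -1.53. Among 10 neuronal genes 4 were higher and 3 lower, and under vehicle 4 and 4. Gap43 differed by 1.90, the tau gene Mapt by 1.70, Ncam1 by 0.59 and the synaptic vesicle gene Syt1 by -0.88.

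Growth factor receptor and ERK feedback genes were higher at 11 of 19 and lower at 4 (median 0.17), and under vehicle at 9 and 5. Over all genes 27.7% were higher and 28.2% lower under 4OHT, which applies to each list of this paragraph. The neurotrophin receptor gene Ntrk2 measured 1917, 1795, 2171 and 2022 in CreER and 645, 578, 588 and 760 in no-Cre arrays, a log2 difference of 1.60, with Hbegf at 1.07, Fgf1 at 0.39 and the ERK phosphatase gene Dusp6 at -0.35. On the Wnt list 5 of 21 were higher and 8 lower (median -0.05), and under vehicle 6 and 7. The ligands Wnt7b and Wnt7a differed by 1.48 and 0.65 and the transcription factor gene Tcf7l2 by -0.73 (a second probe set, -0.16). No Wnt gene was called in the difference from vehicle (0 of 21 by limma's test; 1463 of 7618 genes were). Wnt7a, a reported TLX target, measured 267, 262, 232 and 197 against 175, 159, 118 and 139. Of 11 tested genes on a list of reported TLX-regulated genes, 4 were higher and 3 lower under 4OHT, and 3 and 6 under vehicle. In the difference from vehicle 4 were higher and 0 lower (Cdkn1a, S100b, Hdac5 at 0.47 and Trp53inp1 at 1.08), beside 9.06% and 10.1% over all genes.

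The genotype difference was also taken at each time. At 36 h 4050 genes were called (53.2%), 1980 higher (26%) and 2070 lower (27.2%), and at 60 h 2846 (37.4%), 1441 higher (18.9%) and 1405 lower (18.4%). Shared between the times were 931 higher genes (47.0% of those at 36 h, 64.6% at 60 h) and 986 lower genes (47.6% and 70.2%), and 141 were called in opposite directions. The difference at 60 h minus that at 36 h was called at 1537 genes (20.2%), 783 with a higher (10.3%) and 754 with a lower difference at 60 h (9.9%). The actin ratio also differed between these groups, lowest in the no-Cre arrays at 36 h. With the actin ratio of each array in the model 95 genes were called, with the Gapdh ratio 220, and without replicate 1 of the no-Cre cells at 36 h 920. The ratio and the groups overlap, so their parts cannot be told apart. At 36 h alone 1958 genes were called with the actin ratio in the model.

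Trib3, Slc7a11 and Cth, genes of the amino acid and redox stress response, were higher in CreER cells at 36 h and not at 60 h. Trib3, a pseudokinase induced by ATF4, measured 340 and 395 in CreER and 68.9 and 61.0 in no-Cre arrays at 36 h, and 163 and 167 against 180 and 172 at 60 h. The log2 difference was 2.24 at 36 h and -0.09 at 60 h, a change of -2.33 (SE 0.20, limma adjusted p = 1.2e-05). Slc7a11, the cystine transporter, measured 166 and 170 against 38.6 and 32.0 at 36 h and 57.9 and 65.9 against 78.4 and 76.0 at 60 h, a change of -2.10. Cth, which makes cysteine, differed by 1.30 and then -0.54, a change of -1.85. All 3 stayed called with the actin ratio in the model. Both genotypes took part in the change, as signals in CreER cells were lower and signals in no-Cre cells higher at 60 h than at 36 h.

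Within the stress list as a whole, 16 of 33 tested genes were higher and 11 lower in the pooled comparison (median 0.10; 5 higher and 10 lower on signals as deposited). Over all genes 27.7% were higher and 28.2% lower. Under vehicle 18 of the 33 were higher and 8 lower (median 0.21). Cebpb and Atf5, transcription factors of the response, were higher by 1.22 and 0.55. The chaperone genes of the endoplasmic reticulum Hspa5 and Dnajc3 were lower by -0.69 and -0.75 (a second Dnajc3 probe set, -0.33). Hspa5 measured 3064, 3133, 4167 and 4184 against 6500, 6242, 5195 and 5454, with the wider gap at 36 h. Between the times 8 members had a higher and 13 a lower difference at 60 h.

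Spry4, which damps receptor kinase signals, measured 1033 and 834 in CreER and 288 and 362 in no-Cre arrays at 36 h, and 789 and 505 against 1314 and 1543 at 60 h. Its difference was 1.48 and then -1.15, opposite in direction. The potassium channel gene Kcnd3 went from 1.94 to -0.91 in the same way. No-Cre cells under vehicle showed a similar gap between the times for both genes (329 and 453 against 1325 and 1265 for Spry4). Smad5, Tyro3, Cnot3, Abcb8, Arnt2, Herpud1 and Nsd1 also had a lower difference at 60 h, by -1.83 to -2.11. Of these 7, only Tyro3 stayed called with the actin ratio in the model, and a second Tyro3 probe set changed by -0.34. The Nsd1 value changed sign with that ratio, and second probe sets of Smad5, Herpud1 and Abcb8 changed by -1.12, -0.61 and -0.49.

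Neat1, a long noncoding RNA of nuclear paraspeckles, measured 573 and 526 in CreER and 623 and 745 in no-Cre arrays at 36 h, and 1784 and 1514 against 534 and 599 at 60 h. The difference went from -0.30 to 1.51, and stayed called with the actin ratio in the model. Cp, the copper enzyme ceruloplasmin, measured 211 and 220 against 887 and 1135 at 36 h and 755 and 886 against 946 and 951 at 60 h, from -2.14 to -0.21, and 6 other probe sets gave changes of 0.26 to 1.33. The differences of Airn and Phxr4 also went from below to above 0, by 1.27 and 2.01. Those of Bnip3 and the muscle enolase gene Eno3 were larger at 60 h by 1.38 and 1.60, and with the actin ratio in the model these values were 1.34 and 1.69, neither of them called.

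Further genes with large differences at 36 h or 60 h kept their direction at the other time. At 36 h Wnt7b, the collagen receptor gene Ddr2, Gpr162, Esx1, the ATP-gated channel gene P2rx7 and Gpr37l1 differed by 1.98 to 2.22, and at 60 h by 0.73 to 1.91. On the lower side the laminin chain gene Lama4, the microtubule protein gene Map1b, Rpgrip1, the T-box gene Tbx18, the protease gene Ctsh and Apeh differed by -3.001 to -2.76 at 36 h and -2.66 to -1.85 at 60 h. Ints6 differed by -3.16 and -2.22, though a second probe set gave -0.19 over both times. At 60 h Slc25a42, Cd93 and Cavin3 differed by 2.14 to 2.21, and Fxyd6, the Wnt and BMP antagonist gene Sostdc1 and Tmem267 by -2.995 to -2.58. Sostdc1 measured 207, 227, 231 and 229 in CreER and 1305, 1403, 1499 and 1650 in no-Cre arrays.

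**Figure D5:**
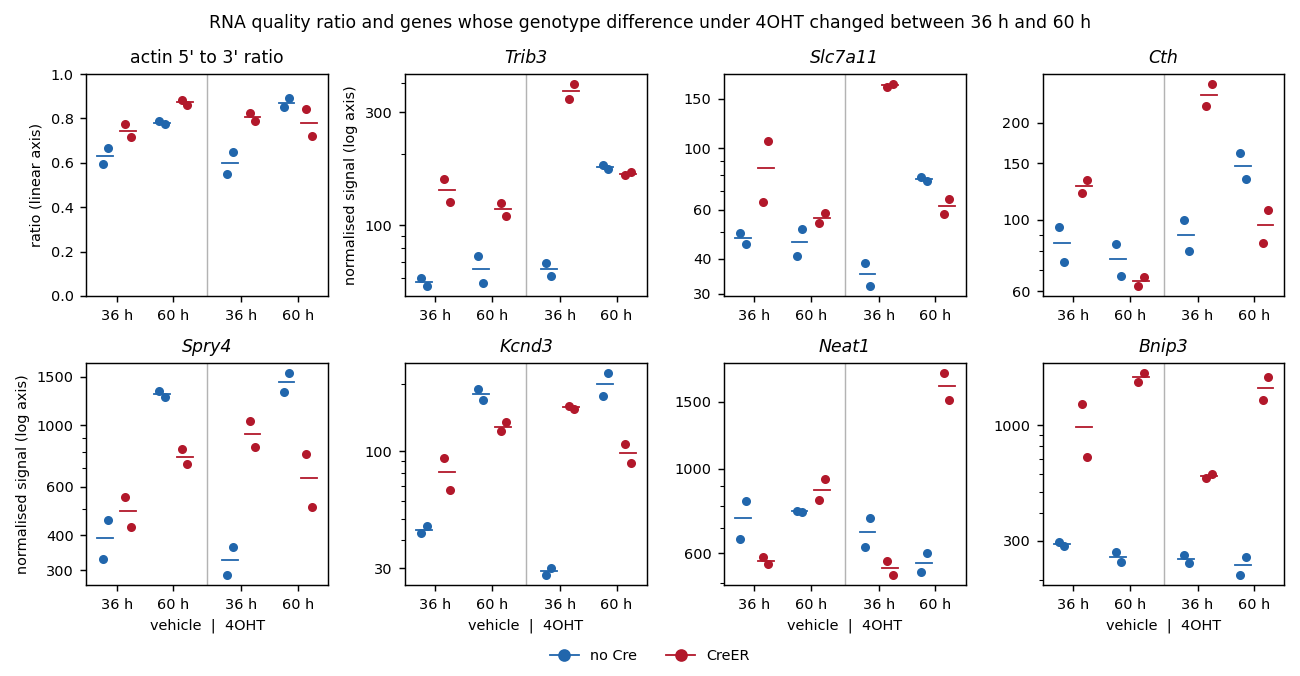
The actin 5′ to 3′ ratio (linear axis) and the normalised signals (log axis) of 7 genes whose genotype difference changed between 36 h and 60 h, 1 point per array and a line at each mean of 2; vehicle is left of the grey line and 4OHT right. The no-Cre arrays at 36 h have the lowest ratios under both treatments, Trib3, Slc7a11 and Cth are higher in CreER cells under 4OHT at 36 h, and Neat1 is highest in CreER cells under 4OHT at 60 h.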

How the data were processed

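RNA of 16 cultures was hybridised to 1 Affymetrix array each. Per the submitters' processing notes, the authors made the deposited intensity values, 1 linear signal per probe set and array, with MAS5; the version and the scaling target are not given in the sources used here. Array medians ran from 92.2 to 132.6. Because such brightness shifts every gene of an array together, signals of 22626 non-control probe sets were quantile-normalised, and log2(signal + 16) was taken. The brightest probe set stood for each gene (12393 genes; 20380 probe sets had 1 symbol in the platform annotation). Genes under the 40th percentile of mean signal (51.4) were left out, leaving 7618. One limma fit (limma 3.58.1, R 4.3.3) of 8 group means on 16 arrays (8 residual degrees of freedom, moderated with trend) gave all contrasts, with Benjamini-Hochberg adjustment at 0.05, and was tested on simulated data.

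Genes named are the 15 largest called differences per direction over both times and 8 per direction at each time. Both were taken only from genes whose groups did not overlap. Named too are 12 per direction for each change of the difference and up to 4 members of each list by p-value. Others are marked where chosen after their values were seen. The comparison, the 28 gene lists and these choices were made with earlier results of these data known. Replicate numbers did not pair the samples (correlations of deviations -0.11 to 0.10 between the 4OHT groups). Alternatives were scaling, pseudocount, filter, probe set choice, model, control ratios and leaving out single arrays. Precision is set by the number of arrays. No presence calls were used.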

Additional observations from a re-analysis of the deposited data

Results flagged for a closer look

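Genotype differences that changed between 36 h and 60 h under 4OHT were singled out by the test of that change. It was called at 783 genes in the higher and 754 in the lower direction. The named genes with a higher difference at 60 h were Phxr4 (2.01), Cp (1.93), Neat1 (1.82), A2m (1.64), Eno3 (1.60), Lalba (1.55), Arhgap31 (1.49), Lor (1.47), Igfbp5 (1.40), Bnip3 (1.38), Airn (1.27) and Mylk (1.23). A second Arhgap31 probe set changed by -1.53, and a second Igfbp5 probe set by -0.03. The named genes with a lower difference at 60 h were Kcnd3 (-2.85), Spry4 (-2.63), Trib3 (-2.33), Smad5 (-2.11), Slc7a11 (-2.10), Herpud1 (-2.08), Nsd1 (-2.06), Abcb8 (-2.05), Tyro3 (-1.86), Cth (-1.85), Cnot3 (-1.84) and Arnt2 (-1.83). Second probe sets of Abcb8, Herpud1, Tyro3, Smad5 and Lor changed by -0.49, -0.61, -0.34, -1.12 and 0.10. Of these 24 genes, Phxr4, Cp, Neat1, Airn, Kcnd3, Spry4, Trib3, Slc7a11, Tyro3 and Cth stayed called with the actin ratio in the model.

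Genotype differences that changed between vehicle and 4OHT were singled out in the same way, at 690 genes in the higher and 773 in the lower direction. The named genes with a higher difference under 4OHT were Cryab (1.89), Pygm (1.75), Igfbp5 (1.66), Cox8b (1.64), Gsn (1.58), Ptp4a3 (1.52), Anxa1 (1.43), Dcxr (1.40), S100b (1.39), Klf2 (1.26), Gadd45b (1.24) and Prkch (1.19). The named genes with a lower difference were Car3 (-1.14), Crb3 (-0.998), Spata5 (-0.97), Lrr1 (-0.94), Blm (-0.91), Serinc4 (-0.90), Chek1 (-0.87), Brca1 (-0.86), Dtl (-0.84), E2f8 (-0.83), Bdnf (-0.83) and Ttk (-0.81).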

How the results depend on the processing

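Limits: there were 2 arrays per group on a platform whose deposited brightness varied 1.44-fold, and the no-Cre arrays at 36 h had the lowest control ratios. On signals as deposited, the calls numbered 2934 under 4OHT, 2150 at 36 h, 1562 at 60 h, 193 for the change between times, 178 for 4OHT minus vehicle and 2631 under vehicle (607 higher and 2024 lower). With every probe set past the filter kept, which tests 13576 probe sets, they numbered 7193 under 4OHT, 6933 at 36 h, 4515 at 60 h, 2621 for the change between times and 7055 under vehicle. With the actin ratio in the model they were 3705 under 4OHT, 1958 at 36 h and 95 for the change between times. With the Gapdh ratio, added after seeing the data, they were 3149, 1892 and 220. For 4OHT minus vehicle the 60 h arrays alone gave 876. With each array scaled to a common median, calls split into 1448 higher and 2360 lower at 36 h and 1041 and 420 for the change between times. The cause of these changes was not tested. Leaving out 1 array at a time gave 3819 to 4019 calls under 4OHT, 3241 to 3404 at 36 h, 2046 to 2295 at 60 h, 920 to 1383 for the change between times (lowest without replicate 1 of the no-Cre cells at 36 h), 1166 to 1478 for 4OHT minus vehicle and 3742 to 3921 under vehicle. These called values of named genes changed sign: Nkx2-2 under 4OHT as deposited (-0.060), and the change of Nsd1 between times with the actin ratio (0.60) and the Gapdh ratio (0.39). Differences near 0 that were not called also crossed 0 for some genes, such as S100b and Olig1 under 4OHT, and the median of the p53 list (0.10) was -0.03 as deposited and that of the sterol list (0.01) -0.05.

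With the replicate number as a block the calls numbered 4249 under 4OHT, 4032 at 36 h, 2832 at 60 h, 1514 for the change between times, 1468 for 4OHT minus vehicle and 4205 under vehicle; the numbers did not pair the samples.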

Other observations

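Some gene groups not described above gave mixed values in CreER against no-Cre cells under 4OHT, where 27.7% of all genes were higher and 28.2% lower. On the Notch list 7 of 17 tested genes were higher and 3 lower, with the receptor Notch1 (0.56), the ligand Jag1 (0.61) and the target Hes1 (0.82) higher and the ligand Dll1 (-0.60) lower. On the BMP and TGF-beta list 7 of 17 were higher and 4 lower, with the ligands Bmp7 (1.29) and Tgfb3 (2.13) higher and the receptor Tgfbr2 (-0.78; a second probe set, -0.08) lower. On the sterol and fatty acid list 7 of 26 were higher and 3 lower, with Fasn at 0.37 and Elovl6 at -0.31 (a second probe set, -0.13), and on signals as deposited 2 were higher and 4 lower. On the heat shock list 6 of 18 were higher and 9 lower, with Bag3 (-0.99) and Hsp90aa1 (-0.41; other probe sets, 0.06 and -0.19) lower and Hspe1 (0.32) higher, and 0 were called higher on signals as deposited. Of 6 oligodendrocyte lineage genes 3 were higher and 0 lower, with Cspg4 at 0.81, while Olig1 was at 0.03, not called. Of 11 estrogen receptor response genes 4 were higher, Esr1 itself among them, and 4 lower, with Ctsd at 0.41 and Myb at -0.51 (a second probe set, -0.15).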
